A study of Mus musculus with 6 samples.

Results

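The genes described here encode the 3 sodium pump beta subunits Atp1b1, Atp1b2 and Atp1b3 and the FXYD proteins Fxyd1, Fxyd3, Fxyd6 and Fxyd7. They are 7 of 19505 genes with a named probe set on the arrays, were taken by gene symbol, and each had 1 probe set. RNA was measured on 6 single-colour arrays. The first group was 3 arrays, titled MBELN 1 to 3, of C57BL/6J mice gavaged for 7 days with MBELN, exosome-like nanoparticles from mulberry bark. The second was 3 arrays, titled PBS 1 to 3, of C57BL/6J control mice, whose gavage the labels do not describe further. The label for both groups is colon crypt, that is, epithelial glands of the large intestine. Age is not labelled, and nothing says whether arrays are of different mice. The tests thus measure the spread between arrays, and the labels do not say whether it is technical or of another source.

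The sodium pump, or Na,K-ATPase, moves sodium out of cells and potassium into them at the cost of ATP, and so maintains the gradients that epithelia use to absorb salt and nutrients and that muscle and nerve use for excitation. Its catalytic alpha subunit reaches the membrane only when assembled with a glycosylated beta subunit. FXYD proteins are small single-span membrane proteins that join the assembled pump and tune its affinity for ions in a tissue-dependent way. In gut epithelium the pump sits in the basolateral membrane. Fxyd5 was not analysed here.

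The labelled tissue was checked against marker genes, in lists chosen with earlier results of these data known. All 3 arrays labelled MBELN went against it. The median of 15 gut epithelial markers was 7.12, 3.82 and 5.78 in MBELN 1, 2 and 3, against 19.31, 17.89 and 19.25 in PBS 1, 2 and 3 (log2 values as deposited). Heart muscle markers were high in MBELN 1 and MBELN 3, with medians of 18.22 and 18.48 over 15 genes, while MBELN 2 had 3.68, PBS 1 and PBS 2 had 3.66 and 3.84, and PBS 3 was similarly low. Neuron, astrocyte and oligodendrocyte markers were high in MBELN 2, with medians of 15.56, 10.10 and 11.37 over 13, 10 and 9 measured genes. The PBS arrays split as well, and PBS 1 and PBS 3 did not match the colon label either. Small intestine markers had medians of 19.18 and 19.34 in PBS 1 and PBS 3 and 3.99 in PBS 2, and colon markers had 17.55 in PBS 2 and 7.86 and 8.96 in PBS 1 and PBS 3. Smooth muscle and fibroblast markers, which the label does not name, had medians of 14.08, 15.53 and 14.02 in PBS 1, 2 and 3. In MBELN 1, 2 and 3 those medians were 11.22, 4.26 and 10.80. Over all transcript probe sets MBELN 1 and MBELN 3 correlated at 0.977, against 0.663 and 0.662 with MBELN 2. PBS 1 and PBS 3 correlated at 0.983, against 0.891 and 0.886 with PBS 2. The standard errors and p-values below thus include differences in marker content between arrays of one group. Fits that leave out MBELN 2 or PBS 2 drop arrays that stand apart in these same values. That can narrow the spread within a group, so p-values of those fits are descriptions and not separate evidence. Whether arrays or labels were exchanged was not tested. Marker content and gavage cannot be told apart between the groups, so no difference between MBELN and PBS given here can be read as an effect of the gavage. The groups are called by their labels, and values are given array by array.

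**Figure D1:**
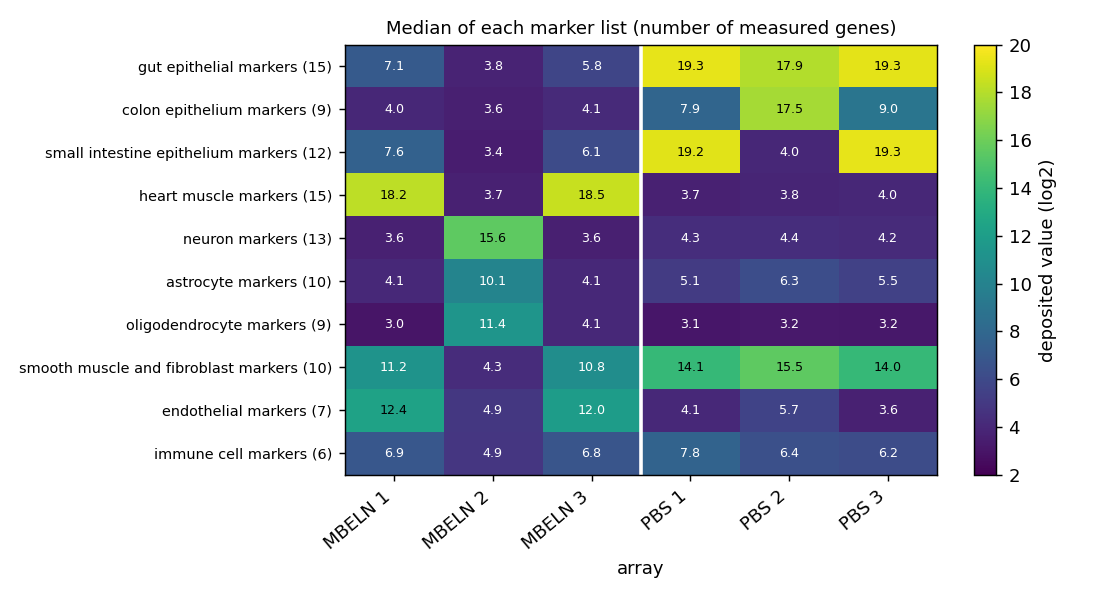
Median log2 value of each marker list (rows, with the number of measured genes) in each array (columns, arrays labelled MBELN on the left). Heart muscle markers stand at 18.2 and 18.5 in MBELN 1 and MBELN 3, neuron markers at 15.6 in MBELN 2, and gut epithelial markers at 17.9 to 19.3 in the PBS arrays.

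A probe set was called dim in an array when it lay below the 95th percentile of the olfactory and vomeronasal receptor probe sets of that array, a level between 4.11 and 4.45 in the MBELN arrays and of at most 4.35 in the PBS arrays. Of the 7 genes, 4 lay above it in all 6 arrays. These were Atp1b1, Atp1b3, Fxyd1 and Fxyd6, whereas Atp1b2, Fxyd3 and Fxyd7 fell below it in some arrays. With limma and Benjamini-Hochberg adjustment over all 22206 transcript probe sets, 1 of the 7 genes passed an adjusted p of 0.05, beside 5.18% of all probe sets. It was lower in MBELN, as were 3.76% of all probe sets, and 1.42% were higher. At an unadjusted p under 0.05 the number was 3 of 7 (limma), beside 17.8% of all probe sets. The MBELN and PBS values did not overlap for 4 of the 7 genes, beside 25.3% of all probe sets. Of those 4, 3 were higher in MBELN, beside 11.9%, and 1 was lower, beside 13.4%. The median difference was 2.26 over the 7 genes and 0.09 over all probe sets (log2, MBELN minus PBS).

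The promoters of 4 of the genes are shown as examples. Atp1b1 was near the top of the scale in 4 of the 6 arrays. Fxyd1 and Fxyd3 lie in one gene cluster and had mean differences of opposite sign, though the groups overlap for Fxyd1. Fxyd6 was above the dim level everywhere, as were Atp1b1, Fxyd1 and Atp1b3. Each window runs from 250 bases before to 50 bases after a transcript start in RefSeq (GRCm38.p6), on the gene's own strand. Capitals mark matches on either strand to 4 short motifs, the GC box GGGCGG, the CCAAT box CCAAT, the TATA box TATAAA and the E-box CAGCTG, none of which overlapped another.
Atp1b1, chr1:164458306-164458605, minus strand: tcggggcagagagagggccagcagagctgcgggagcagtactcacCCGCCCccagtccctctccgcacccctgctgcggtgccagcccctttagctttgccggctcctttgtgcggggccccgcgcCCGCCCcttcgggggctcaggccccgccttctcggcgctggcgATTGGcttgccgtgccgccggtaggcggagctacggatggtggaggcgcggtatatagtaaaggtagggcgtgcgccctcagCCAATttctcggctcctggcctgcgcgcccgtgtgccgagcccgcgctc
Fxyd1, chr7:31054804-31055103, minus strand: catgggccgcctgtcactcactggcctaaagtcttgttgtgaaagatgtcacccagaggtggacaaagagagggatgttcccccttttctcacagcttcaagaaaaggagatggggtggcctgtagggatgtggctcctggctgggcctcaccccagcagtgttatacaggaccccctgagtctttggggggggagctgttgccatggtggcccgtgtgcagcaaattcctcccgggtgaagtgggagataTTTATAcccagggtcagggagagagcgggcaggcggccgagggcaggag
Fxyd3, chr7:31076648-31076947, minus strand: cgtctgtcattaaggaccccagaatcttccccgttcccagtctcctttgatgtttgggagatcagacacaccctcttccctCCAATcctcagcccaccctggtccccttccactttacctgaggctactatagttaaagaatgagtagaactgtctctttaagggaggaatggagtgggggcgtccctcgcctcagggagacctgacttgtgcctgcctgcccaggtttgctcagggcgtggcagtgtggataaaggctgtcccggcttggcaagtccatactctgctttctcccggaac
Fxyd6, chr9:45369935-45370234, plus strand: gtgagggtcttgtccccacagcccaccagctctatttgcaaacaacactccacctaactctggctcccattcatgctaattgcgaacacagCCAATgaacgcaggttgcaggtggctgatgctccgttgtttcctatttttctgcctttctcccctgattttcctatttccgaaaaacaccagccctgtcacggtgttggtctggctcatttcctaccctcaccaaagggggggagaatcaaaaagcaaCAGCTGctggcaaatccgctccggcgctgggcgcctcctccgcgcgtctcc

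The Atp1b1 window was 71% G and C, against a median of 52.7% over the 32851 RefSeq windows of this length, and held 2 GC boxes and 2 CCAAT boxes. The Fxyd1 window was 58.7% G and C and held 1 TATA box match, which begins 2 bases into the transcript. Fxyd3 and Fxyd6 windows were 55% and 54.3% G and C and held 1 CCAAT box each, and that of Fxyd6 also held 1 E-box. Among all windows, 35.7% held a GC box, 37.4% a CCAAT box, 13.6% a TATA box and 16.3% this E-box, so the matches are a description of the letters and not of sites in use. Atp1b3 has 2 windows in the same table, of 74.7% and 76% G and C, the second with 6 GC boxes. In the RefSeq gene table, Fxyd7, Fxyd1 and Fxyd3 lie on chromosome 7 in that order, with Lgi4 between Fxyd1 and Fxyd3, and Fxyd6 lies next to Fxyd2 on chromosome 9. The annotated spans of Fxyd3 and Lgi4 overlap. Those of Atp1b1 and Nme7 overlap too, and Gm38984 overlaps both Fxyd1 and Fxyd7. The values of Nme7 and Gm38984 were not looked at. Lgi4, looked at after its values had been seen, read 3.70, 4.97 and 2.99 in MBELN 1, 2 and 3 and 2.64, 3.04 and 2.94 in PBS 1, 2 and 3, below the dim level in every array except MBELN 2, and its part in the Fxyd3 signal was not tested.

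Atp1b1 encodes the beta subunit that most tissues pair with the pump, gut epithelium, heart and neurons among them. It read 13.82, 19.37 and 14.90 in MBELN 1, 2 and 3, against 18.73, 18.71 and 18.98 in PBS 1, 2 and 3. The 3 PBS arrays lay within 0.27 log2 units of each other although their intestinal region markers differed, MBELN 2 was above all of them, and MBELN 1 and MBELN 3 were below, so the groups overlap. The difference was -2.77 ± 1.45 (log2, SE, n = 3 each; limma, adjusted p = 0.400). Without MBELN 2 it was -4.44 ± 0.40 (limma, adjusted p = 0.00177), and without both PBS 2 and MBELN 2 it was -4.49 ± 0.43 (limma, adjusted p = 0.000281). MBELN 2 exceeded the PBS mean by 0.57. The values of MBELN 2 and the PBS arrays lie close to the highest value in the table, 19.93, so differences among them may be understated. The heart muscle median was 18.22 and 18.48 in the arrays with low Atp1b1 and the neuron median 15.56 in the array with the highest, and their part in the difference was not tested. In bulk RNA, fewer cells of a type and less RNA per cell cannot be told apart.

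Atp1b2 encodes the beta 2 subunit, also known as the adhesion molecule on glia, which brain tissue carries on astrocytes and neurons. It read 5.32, 14.81 and 4.52 in MBELN 1, 2 and 3, against 4.01, 3.26 and 3.55 in PBS 1, 2 and 3. All 3 PBS values were dim and all 3 MBELN values were above the dim level, though MBELN 3 barely so, at 4.52 against 4.45. The lack of overlap for Atp1b2 thus rests partly on values near the dim level. MBELN 2 stood 9.89 above the mean of MBELN 1 and MBELN 3. As a mean of the group the MBELN arrays were at least 16.4-fold higher than the PBS arrays (limma, difference 4.61 ± 2.80, adjusted p = 0.471), a value set by 1 array, since without MBELN 2 the bound was 1.67-fold. Without MBELN 2 the difference was 1.31 ± 0.40 (limma, adjusted p = 0.0868). Of 10 astrocyte markers, 4, 10 and 3 were above the dim level in MBELN 1, 2 and 3, against 6, 8 and 6 in PBS 1, 2 and 3. The list median was 4.10, 10.10 and 4.05 in MBELN 1, 2 and 3, against 5.11, 6.26 and 5.48 in PBS 1, 2 and 3. The log2 of the summed level ran from 12.67 to 20.13 in MBELN and from 11.04 to 11.64 in PBS. In MBELN 1 and MBELN 3 that sum was mostly Gja1, a connexin of astrocytes and also of heart, which read 12.60, 11.03 and 13.86 in MBELN 1, 2 and 3, against 6.67, 7.02 and 7.56 in PBS 1, 2 and 3, and was the 1 gene of the list that rose (limma, adjusted p = 0.0180). Aldh1l1, a folate enzyme of astrocytes and liver, read 3.14, 6.93 and 2.68 in MBELN 1, 2 and 3, against 8.66, 8.31 and 9.40 in PBS 1, 2 and 3. Both were singled out after their values had been seen. Gfap, the intermediate filament of astrocytes, read 2.69, 7.50 and 2.63 in MBELN 1, 2 and 3, against 2.53, 2.70 and 3.43 in PBS 1, 2 and 3. Aqp4, their water channel, read 5.12, 9.17 and 4.37 in MBELN 1, 2 and 3, against 6.03, 6.63 and 6.95 in PBS 1, 2 and 3, so it was above the dim level in the PBS arrays too. Whether these cells carry the Atp1b2 signal was not tested.

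Atp1b3 encodes the beta 3 subunit, which is found in many tissues. It read 10.66, 9.63 and 10.68 in MBELN 1, 2 and 3, against 8.06, 9.43 and 8.71 in PBS 1, 2 and 3. Every MBELN value lay above every PBS value and the nearest pair was MBELN 2 and PBS 2. Its range over the 6 arrays, 2.61, was the smallest of the 7 genes. The difference was 1.59 ± 0.50 (log2, SE, n = 3 each), with an unadjusted p of 0.0207 and an adjusted p of 0.173 (limma). Without MBELN 2 it was 1.94 ± 0.46 (limma, adjusted p = 0.0425), and without both PBS 2 and MBELN 2 it was 2.28 ± 0.36 (limma, adjusted p = 0.00278). Leaving out MBELN 1, MBELN 3, PBS 1, PBS 2 or PBS 3 alone gave adjusted p of 0.389, 0.390, 0.466, 0.115 and 0.427 (limma).

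**Figure D2:**
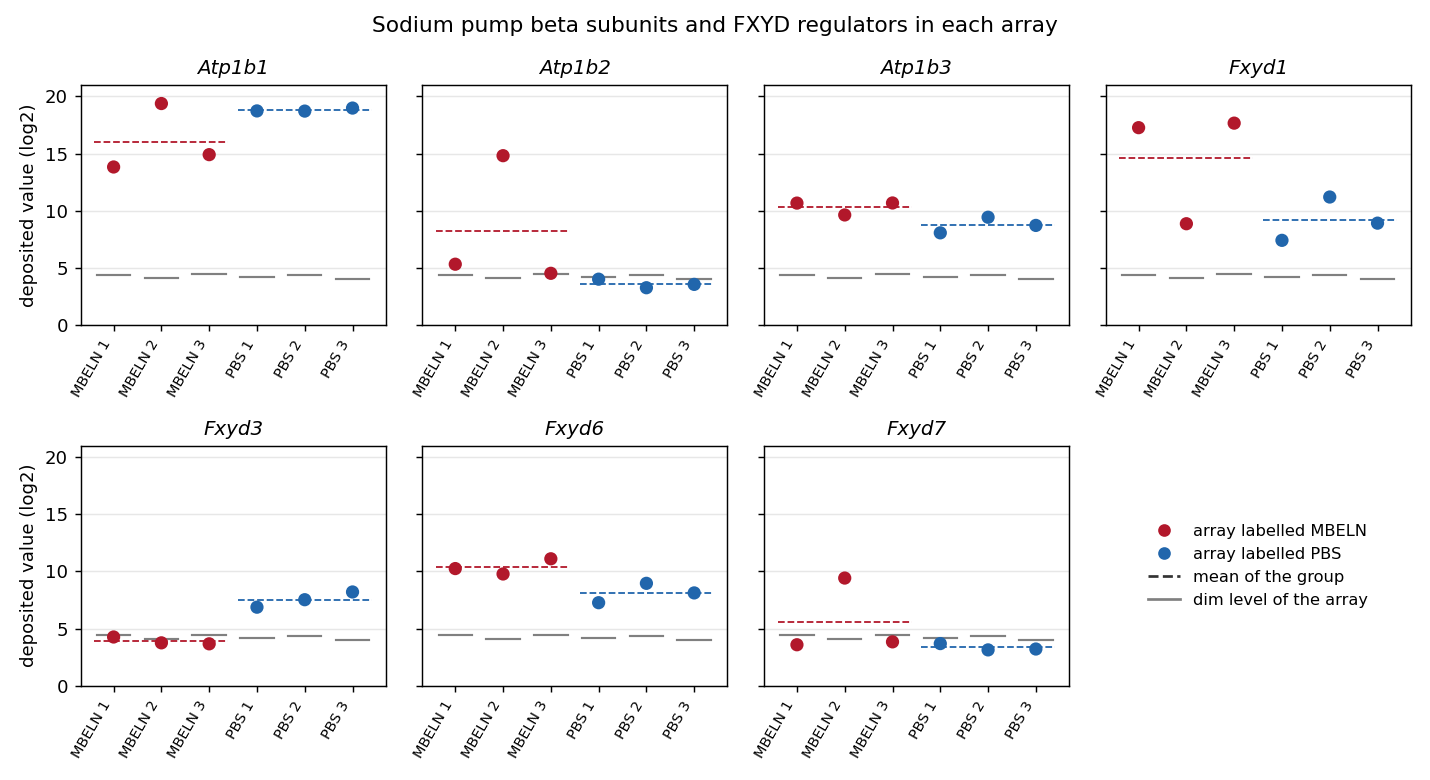
Deposited log2 value (vertical axis) of each gene in each array (horizontal axis, red MBELN, blue PBS), with the group mean as a dashed line and the dim level of each array as a grey bar. Atp1b2 and Fxyd7 stand out in MBELN 2, at 14.8 and 9.42, and Fxyd1 in MBELN 1 and MBELN 3, at 17.3 and 17.7.

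Fxyd1 encodes phospholemman, the FXYD protein of heart and skeletal muscle, which restrains the pump until it is phosphorylated. It read 17.26, 8.86 and 17.66 in MBELN 1, 2 and 3, against 7.41, 11.20 and 8.91 in PBS 1, 2 and 3. MBELN 1 and MBELN 3 lay far above every other array, while MBELN 2 lay within the PBS range, so the groups overlap. The difference was 5.42 (log2, 95% interval -1.02 to 11.87, n = 3 each; limma, adjusted p = 0.356). It was 8.29 ± 1.09 without MBELN 2 (limma, adjusted p = 0.00631) and 9.30 ± 0.53 without both PBS 2 and MBELN 2 (limma, adjusted p = 2.65e-05). All 15 heart muscle markers were above the dim level in MBELN 1 and MBELN 3, against 4 in MBELN 2 and 4, 5 and 7 in PBS 1, 2 and 3. Myh6, the atrial and adult mouse ventricular myosin heavy chain, read 18.82, 3.68 and 19.03 in MBELN 1, 2 and 3, against 3.66, 3.28 and 3.24 in PBS 1, 2 and 3. The log2 of the summed level of the list ran from 11.35 to 22.52 in the MBELN arrays and from 8.83 to 11.30 in the PBS arrays. Among the PBS arrays PBS 2 was the highest for Fxyd1, by 3.04 over the mean of PBS 1 and PBS 3, and it also had the highest smooth muscle and fibroblast median, 15.53 against 14.08 and 14.02. What these markers contribute to Fxyd1 was not tested.

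Fxyd3, also known as Mat-8, is the FXYD protein of gastric and colonic epithelium and was the gene that passed the threshold over all 6 arrays. It read 4.27, 3.76 and 3.67 in MBELN 1, 2 and 3, against 6.87, 7.53 and 8.20 in PBS 1, 2 and 3. All 3 MBELN values were dim and all 3 PBS values were above the dim level, with no overlap. MBELN fell by 3.64 ± 0.43 (log2, SE, n = 3 each; limma, adjusted p = 0.0106), which, with the MBELN arrays at their dim level, is at least 9.28-fold lower. Spiked hybridisation controls, a technical measure, were brighter on MBELN 1, MBELN 3 and PBS 2 and weaker on MBELN 2, PBS 1 and PBS 3. The difference was -3.56 among the brighter arrays, where PBS 2 is the single PBS array, and -3.78 among the weaker ones, where MBELN 2 is the single MBELN array. This division, made after seeing the data, coincides with the marker content of the arrays, and the values are descriptions without a test. The call ended without MBELN 3 (limma, adjusted p = 0.0585). Across the same arrays all 15 gut epithelial markers fell, beside 3.76% of all probe sets, with a median difference of -13.34. Epcam, a surface protein of epithelial cells, read 7.12, 2.47 and 7.54 in MBELN 1, 2 and 3, against 19.40, 18.97 and 19.41 in PBS 1, 2 and 3, and Cdh1, the epithelial cadherin, read 4.34, 3.35 and 4.89, against 17.82, 18.47 and 17.83 in the same PBS arrays. The log2 of the summed level of this list ran from 7.81 to 11.34 in MBELN and from 22.32 to 22.78 in PBS. Their part in the Fxyd3 difference was not tested. PBS 2, marked by colon genes, read within the range of PBS 1 and PBS 3 for Fxyd3.

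Fxyd6 encodes phosphohippolin, which was described in brain and inner ear. It read 10.25, 9.78 and 11.11 in MBELN 1, 2 and 3, against 7.27, 8.96 and 8.12 in PBS 1, 2 and 3. Every MBELN value lay above every PBS value, whether the array carried heart or neuron markers. The difference was 2.26 ± 0.57 (log2, SE, n = 3 each), with an unadjusted p of 0.00861 and an adjusted p of 0.105 (limma). It was 2.56 ± 0.58 without MBELN 2 (limma, adjusted p = 0.0383) and 2.99 ± 0.45 without both PBS 2 and MBELN 2 (limma, adjusted p = 0.00241). Without MBELN 1, MBELN 3, PBS 1, PBS 2 or PBS 3 alone the adjusted p was 0.249, 0.267, 0.303, 0.0669 and 0.309 (limma). Fxyd6 and Atp1b3 were thus the genes above the dim level in all 6 arrays whose groups did not overlap, and both rose in the fits that left out MBELN 2.

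Fxyd7 encodes a FXYD protein found in brain, where it joins pumps that contain beta 1. It read 3.59, 9.42 and 3.84 in MBELN 1, 2 and 3, against 3.69, 3.14 and 3.21 in PBS 1, 2 and 3. MBELN 2 was the single array above the dim level. The difference was 2.27 ± 1.62 (limma, adjusted p = 0.541), and without MBELN 2 it was 0.37 ± 0.31 (limma, adjusted p = 0.521). For Syn1, the gene of a vesicle-coating synapsin, the values were 2.70, 16.12 and 3.23 in MBELN 1, 2 and 3, against 2.95, 2.69 and 4.05 in PBS 1, 2 and 3. Syp, the vesicle protein synaptophysin, read 19.81 in MBELN 2 and 6.66 to 7.21 in the other 5 arrays. All 13 neuron markers were above the dim level in MBELN 2, against 5 in MBELN 1 and MBELN 3 and 7, 7 and 8 in PBS 1, 2 and 3. The part of neurons in the Fxyd7 value was not tested.

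**Figure D3:**
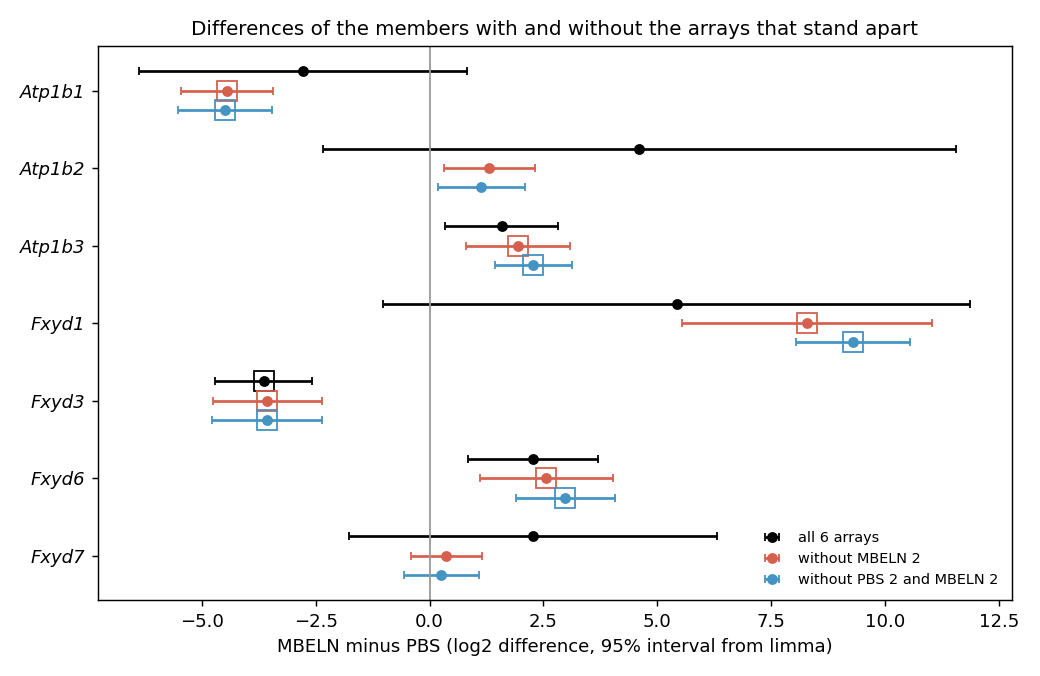
Difference between MBELN and PBS (horizontal axis, log2, points with 95% intervals from limma) for each gene over all 6 arrays, without MBELN 2, and without both PBS 2 and MBELN 2. Open squares mark an adjusted p under 0.05, which holds for Fxyd3 over all arrays and for Atp1b1, Atp1b3, Fxyd1, Fxyd3 and Fxyd6 in the other fits.

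Leaving out MBELN 2 raised the number of the 7 genes past the threshold to 5, with 3 higher and 2 lower in MBELN, beside 16.8% of all probe sets. The same 5 genes passed without both PBS 2 and MBELN 2, beside 30.5% of all probe sets, and with array weights, beside 25.9%. Both fits that leave out MBELN 2 set arrays with heart muscle markers against arrays with gut epithelial markers. The arrays left out stand apart in these same values, so the added calls are not separate evidence. Among the arrays with weaker hybridisation controls, MBELN 2 alone against PBS 1 and PBS 3, Atp1b2 differed by 11.03, Fxyd7 by 5.97, Fxyd6 by 2.08 and Fxyd1 by 0.70, which describes 1 MBELN array and has no replicate check. Among the brighter ones, MBELN 1 and MBELN 3 against PBS 2 alone, Fxyd1 differed by 6.26, Atp1b1 by -4.35 and Atp1b2 by 1.66, which likewise rests on 1 PBS array.

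Of 4 other sodium pump and FXYD genes that were measured, 0 passed the threshold with limma and 0 had an unadjusted p under 0.05. Over all probe sets the shares were 5.18% and 17.8% (limma). Fxyd2, the gamma subunit of kidney pumps, read 6.55, 5.22 and 7.79 in MBELN 1, 2 and 3, against 4.03, 7.56 and 4.32 in PBS 1, 2 and 3. Fxyd4, also known as CHIF, is the FXYD protein of kidney collecting duct and distal colon, and read 13.62 in PBS 2 and 3.03 to 3.84 in the other 5 arrays. Atp1a4, the sperm alpha subunit, and Atp1b4, a muscle protein related to the beta subunits, were dim in all 6 arrays, at 3.43 or below. Among the 3 proton-potassium pump genes, which encode relatives of the sodium pump, 0 passed with limma and 0 had an unadjusted p under 0.05. Atp12a, the catalytic subunit of the colonic form, read 15.42 in PBS 2 and 2.79 to 3.73 elsewhere, while the gastric subunits Atp4a and Atp4b were dim in every array. PBS 2, the array with a colon marker median of 17.55, was thus the single array above the dim level for Fxyd4 and Atp12a, a pair noted after the values had been seen.

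Of 9 genes for proteins that work beside the pump, 1 rose, 0 fell and 8 did not pass. Over all probe sets 1.42% rose and 3.76% fell (limma). Slc8a1, a sodium-calcium exchanger that spends the sodium gradient, read 10.94, 10.64 and 12.53 in MBELN 1, 2 and 3, against 4.61, 4.09 and 5.15 in PBS 1, 2 and 3, and rose by 6.76 ± 0.60 (log2, SE, n = 3 each; limma, adjusted p = 0.00432). The heart muscle marker median beside it was 18.22, 3.68 and 18.48 in MBELN 1, 2 and 3, and the neuron marker median 3.63, 15.56 and 3.55. Ryr2, a calcium release channel on the heart muscle list that was singled out after its values had been seen, read 13.05, 11.22 and 12.75 in the same arrays, against 3.46, 3.75 and 4.74 in PBS 1, 2 and 3. The part of heart muscle or neurons in the Slc8a1 difference was not tested. Ank2, an ankyrin that anchors pump and exchanger in heart and nerve, read 4.35, 12.02 and 4.89 in MBELN 1, 2 and 3, against 2.49, 2.90 and 2.23 in PBS 1, 2 and 3 (limma, adjusted p = 0.339). Nkain4 and Nkain1, whose products bind the beta 1 subunit, differed by 1.93 and 1.80 (limma, adjusted p = 0.141 and 0.277).

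Of 11 genes for epithelial sodium entry and its control, 2 fell, 0 rose and 9 did not pass. Over all probe sets 3.76% fell and 1.42% rose (limma). The median difference was -3.80 over the 11 genes and 0.09 over all probe sets. Slc9a2, a sodium-proton exchanger of the apical membrane, read 3.63, 3.53 and 3.27 in MBELN 1, 2 and 3, against 12.70, 12.82 and 12.08 in PBS 1, 2 and 3, at least 297-fold lower in MBELN (limma, adjusted p = 0.000493). Hsd11b2, the enzyme that keeps cortisol-like steroids off the mineralocorticoid receptor, read 3.64, 3.56 and 3.30, against 7.32, 10.28 and 7.44 in the same order, at least 16.3-fold lower in MBELN, or at least 8.33-fold without PBS 2 (limma, adjusted p = 0.0363 over all arrays). The Hsd11b2 difference was -4.85 over all arrays. Leaving out MBELN 1, MBELN 3, PBS 1 or PBS 3 ended the call (limma, adjusted p = 0.128, 0.141, 0.0935 and 0.0995), with differences of -4.92, -4.75, -5.36 and -5.30. The receptor itself, Nr3c2, differed by -3.80 ± 1.08 (limma, adjusted p = 0.137). Slc5a1, the sodium-glucose cotransporter of small intestine, read 5.16, 2.59 and 5.82 in MBELN 1, 2 and 3, against 16.79, 10.05 and 17.11 in PBS 1, 2 and 3 (limma, adjusted p = 0.0604). The adjusted p for Slc5a1 was 0.175, 0.0471 and 0.157 without MBELN 1, 2 or 3 and 0.227, 0.00680 and 0.214 without PBS 1, 2 or 3 (limma). The sodium channel subunits Scnn1a, Scnn1b and Scnn1g, looked at after their values had been seen, read 13.75, 7.89 and 10.77 in PBS 2, and for Scnn1b and Scnn1g every other array was dim. The gut epithelial median beside these genes was 3.82 to 7.12 in MBELN and 17.89 to 19.31 in PBS, and its part was not tested.

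**Figure D4:**
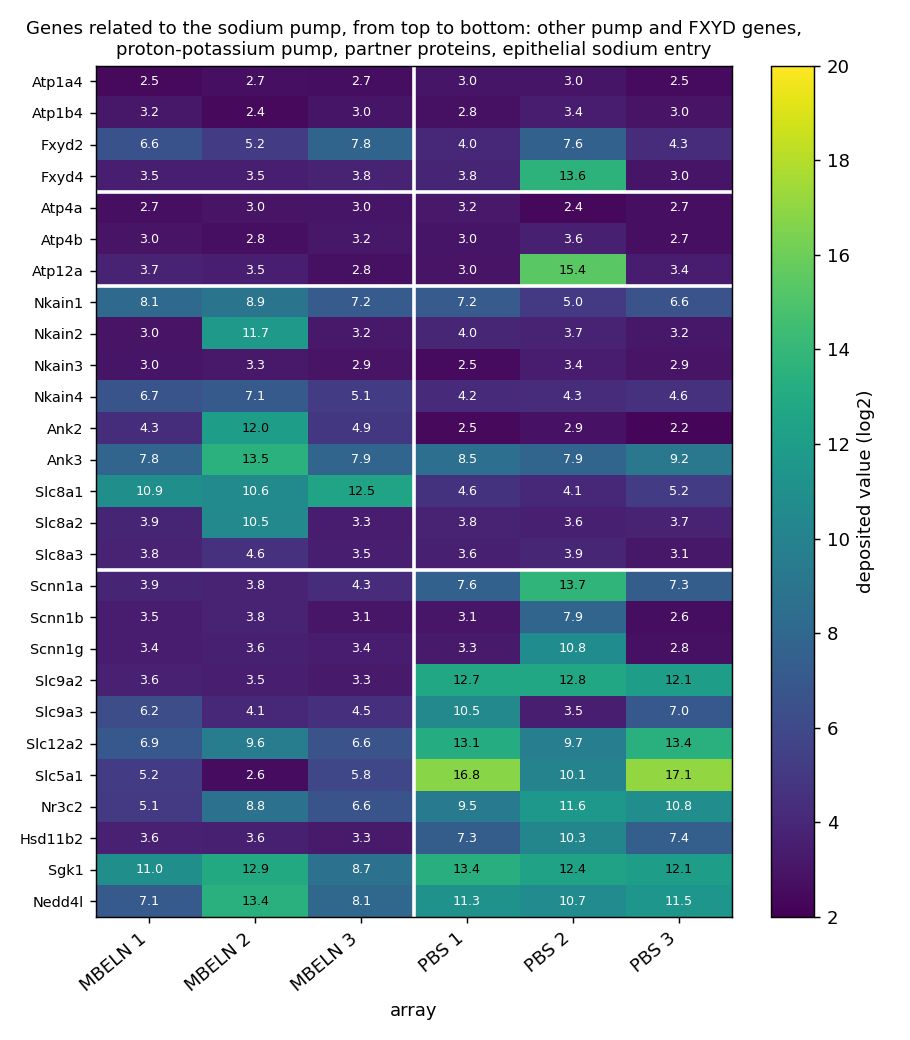
Deposited log2 value of genes related to the pump (rows, in 4 lists divided by white lines) in each array (columns, arrays labelled MBELN on the left). Fxyd4 and Atp12a are bright in PBS 2 alone, at 13.6 and 15.4, and Slc8a1 is at 10.6 to 12.5 in all 3 arrays labelled MBELN.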

How the data were processed

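Single-colour arrays of 6 RNA samples were analysed, 3 of MBELN and 3 of PBS mice. Biotinylated cRNA was made from 90 ng of total RNA, per the labels' protocols, which also name an Ion AmpliSeq assay that the sources used here do not explain. Per the submitters' processing notes, Transcriptome Analysis Console 4.0 was used. How signals were summarized, background-corrected and normalized, and the genome build, is not given in the sources used here. Values as deposited by the authors are taken as log2, a scale inferred from their range of 1.45 to 19.93. Precision is limited by the number of arrays.

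Of 28846 probe sets, 6640 array controls were left out, and 22206 transcript probe sets were tested. The platform annotation gave 1 gene symbol to 19572 of them, 0 had several and 2634 had none. MBELN was compared with PBS in R 4.3.3 with limma 3.58.1 (lmFit, then eBayes) without covariates, two-sided, on the deposited values, with Benjamini-Hochberg adjustment and a threshold of 0.05, and with 4 residual and 1.66 prior degrees of freedom. The procedure was tested on simulated data. The dim level rests on 1429 receptor probe sets. A fold of at least N sets the bright group's mean against the dim level of the other group. Where a list was described, genes past the threshold and up to 4 with the smallest p were named, and the first 2 of a marker list where one was needed. Likeness between genes was the root mean square distance of values centred on each gene's mean. Genes and lists were chosen with earlier results of these data known.

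Hybridisation controls averaged 9.79 to 10.09 in MBELN 1, MBELN 3 and PBS 2 and 8.43 to 8.98 in MBELN 2, PBS 1 and PBS 3. Alternatives were other normalizations, a dim filter, other variance models, array weights, blocks, left-out arrays and other thresholds. Fits within a hybridisation control level were added after seeing the data. Promoters are those of RefSeq, which held windows for 5 of the 7 genes. Figures were drawn with matplotlib 3.10.9.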

Additional observations from a re-analysis of the deposited data

How the results depend on the processing

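The 7 genes were tested under each alternative, and Fxyd3 was lower in MBELN in all of them. The number of the 7 genes past the threshold, 1 over all arrays, was 5 with array weights, 5 without both PBS 2 and MBELN 2, and 0 at an adjusted p of 0.01. It lay between 0 and 5 when 1 array was left out, with 0 without MBELN 3 and 5 without MBELN 2. The fits among arrays with brighter and with weaker hybridisation controls have 1 array in one group. Its spread is taken from the other arrays, so for the 7 genes those fits give differences and no calls. Their counts over all probe sets, listed further on, have no replicate check in one group and are not comparable with the other counts. With the replicate number as a block, 0 of the 7 genes passed (Fxyd3, limma, adjusted p = 0.0789), and Hsd11b2 no longer passed either (0.0934). The deviations of same-numbered arrays from their group means correlated at -0.03, -0.07 and -0.06 over probe sets. Those of other-numbered arrays correlated at -0.09 to 0.08. Marker content differs within each group and enters these deviations, so they cannot decide whether the numbers pair the arrays. The count over all probe sets was 1150, and 5757 with array weights, 456 with the replicate block, 6769 without both PBS 2 and MBELN 2, 407 and 1772 at adjusted p of 0.01 and 0.10, 4174 and 7234 among the brighter and the weaker arrays, and 377 to 3738 with 1 array left out. Of the 4 other pump and FXYD genes, 1 passed without both PBS 2 and MBELN 2 (Fxyd2, higher). Atp1b1 was 0.52 higher in MBELN among the weaker arrays, the single reversal. Of the other differences of the 7 genes under alternatives, most kept their direction and side of the threshold, and 2 no longer passed. With more than 1 array per group, those that passed it newly were of Atp1b1, Atp1b3, Fxyd1 and Fxyd6. They did so with array weights, without MBELN 2, and without both PBS 2 and MBELN 2. Beside the alternatives named, quantile normalization, median centring, the dim filter, the trended robust variance model and the hybridisation control block left the number of the 7 genes past the threshold at 1. Fxyd7 had no value under the dim filter, and other choices of probe set could not be run because each gene had 1. The causes were not tested. Dim values limit what can be said of Atp1b2, Fxyd3 and Fxyd7.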

Other observations

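Genes with the pattern most like each of the 7 over the 6 arrays were named by the distance between centred values, a description without a test. Closest to Atp1b1 were Mgat3 and Mgat5, which encode N-acetylglucosaminyltransferases of N-glycans, at 0.29 and 0.36 log2 units. Mgat3 read 2.97, 7.74 and 3.53 in MBELN 1, 2 and 3, against 7.53, 7.64 and 7.31 in PBS 1, 2 and 3, so it too was low in MBELN 1 and MBELN 3 and as high in MBELN 2 as in the PBS arrays. Closest to Fxyd7 were Grm7, a metabotropic glutamate receptor, and Pak3, a kinase, at 0.13 and 0.15, with 8.62 and 9.93 in MBELN 2. Phf24 and Cmtm5 were closest to Atp1b2, at 0.28 and 0.30.

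For Fxyd1 the closest were Tm4sf1, a surface protein of endothelium and other cells, at 0.58, and Nipsnap2, a mitochondrial protein, at 0.63. Tm4sf1 read 14.84, 5.12 and 14.06 in MBELN 1, 2 and 3, against 4.66, 7.24 and 5.07 in PBS 1, 2 and 3, and shared with Fxyd1 the higher value in PBS 2. Endothelial markers had medians of 12.36 and 11.96 in MBELN 1 and MBELN 3 and 4.94 in MBELN 2, against 4.09, 5.65 and 3.62 in PBS 1, 2 and 3. Closest to Fxyd3 were Car9, a membrane carbonic anhydrase, and Traf4, an adaptor of receptor signalling, at 0.25 and 0.30. Closest to Atp1b3 were Rbms3 and Btf3l4, at 0.17 and 0.19, and closest to Fxyd6 were Mrpl48 and Zfp637, at 0.20 and 0.27.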
